A study of Mus musculus with 8 samples.

Results

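The cells described here were 255 of the 8447 filtered cells of the sorted E16.5 distal forelimb library, or 3.02% (2.66 to 3.41) of them, and of the 53085 filtered cells of all 8 libraries. A cell was a member if it had at least 3000 UMIs (unique molecular identifiers, each marking 1 captured transcript), at most 10% mitochondrial UMIs, and 1 or more UMIs in at least 3 of 5 genes, *Calb2*, *Cdh4*, *Crym*, *Bmp5* and *Gria1*. The working name of these cells was *Calb2* *Cdh4* *Crym* distal mesenchyme. By the rule's own count, 250 of the 255 members had a *Cdh4* UMI, 211 a *Bmp5* UMI, 199 a *Crym* UMI, 93 a *Gria1* UMI and 58 (22.7%) a *Calb2* UMI, so the first gene of that name was in a minority of them. In the other cells, a UMI of *Cdh4* was found in 21.8%, of *Bmp5* in 10.2%, of *Crym* in 3.11%, of *Calb2* in 2.84% and of *Gria1* in 1.43%. How far these shares set the counts in the members was not tested. The cells are called members below. Each of the 255 members had at least 3 of 10 mesenchymal markers when cells were compared at 3000 UMIs, as did 99.2% of the other cells of the library, so these markers fit the name but do not set the members apart. Of the 10 markers, none was higher and 4 were lower in the members by a log2 ratio of 1 or more, with a median of -0.82. Of the 10254 genes counted below, 1.95% were higher and 5.94% lower by as much.

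The library held tdTomato+ cells of C57BL/6J embryos that were homozygous for a *Hic1* CreERT2 allele and a Cre-dependent Rosa26 tdTomato reporter, and whose dams were given 7.5 mg of tamoxifen by gavage on day 10 of gestation, so that the reporter marks cells that expressed *Hic1* around that time and their descendants. The distal library came from the distal zeugopod (the forearm near the wrist) and the autopod (the hand). For comparison, the series has sorted tdTomato+ libraries of the same genotype, strain and treatment from E11.5, E12.5, E13.5 and E14.5 forelimbs and from the E16.5 proximal segment (distal stylopod, elbow joint and proximal zeugopod), and 2 E11.5 libraries, called whole 1 and whole 2, labelled as holding both tdTomato+ and tdTomato- cells. Whole 1 and whole 2 had the same tamoxifen dose of 7.5 mg. The study's methods describe them as dissociated whole limbs that carried the *Hic1* CreERT2 and tdTomato alleles. Limbs of several embryos were pooled for a sorted library and cells with endothelial and blood surface markers were gated out, according to the study's methods. Both *Hic1* alleles carried CreERT2 in every sorted library, so no sorted group had a wild-type *Hic1* allele. Each sorted group was 1 library, which leaves nothing to test between groups, so no p-value is given and the bracketed ranges are exact 95% intervals for counting error only.

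The mesenchyme of the hand is patterned by posterior HOXA and HOXD proteins and by secreted signals, among them bone morphogenetic proteins (BMPs), fibroblast growth factors (FGFs), WNTs and retinoic acid, which is made from retinaldehyde by ALDH1A enzymes and broken down by CYP26 enzymes. The 5 genes of the rule belong to unrelated families. *Cdh4* encodes R-cadherin, a calcium-dependent adhesion molecule, *Crym* encodes µ-crystallin, which binds thyroid hormone in the cytosol, *Bmp5* encodes a BMP ligand, *Gria1* a subunit of AMPA-type glutamate receptors, and *Calb2* the calcium-binding protein calretinin. In GRCm38, *Calb2* spans chr8:110137502-110168210 and *Crym* chr7:120186380-120202111, both on the minus strand, while *Cdh4* spans chr2:179442431-179899373, *Bmp5* chr9:75775364-75900310 and *Gria1* chr11:57011387-57330244, all on the plus strand.

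The 5 genes chose the members, so their levels are a description and not a finding. Levels are in CPM, the UMIs of a gene summed over the cells of a set and scaled so that all genes of that set add up to 1000000. *Cdh4* was at 206 CPM (194 to 217) in the members and at 26.5 CPM (25.7 to 27.3) in the other cells. *Bmp5* was at 112 against 10.7 CPM, *Crym* at 78.5 against 3.66 CPM, *Calb2* at 58.7 against 7.96 CPM and *Gria1* at 30.4 against 0.984 CPM. The most frequent combination was *Cdh4*, *Crym* and *Bmp5* without the other 2 genes, in 117 members (45.9%), followed by *Cdh4*, *Bmp5* and *Gria1* in 34, all of these 4 genes in 27 and *Calb2*, *Cdh4* and *Crym* in 20. All 5 genes were found in 2 cells. The label's combination of *Calb2* with *Cdh4* and *Crym*, with or without the other genes, was thus a minority among the members. *Calb2* was uneven between cells: it was not detected in most members while 1 member had 42 *Calb2* UMIs.

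The limit of 3 genes cut through a graded distribution. Of the 8447 cells, 5540 had none of the 5 genes, 2084 had 1, 568 had 2, 211 had 3, 42 had 4 and 2 had all 5. *Crym* was at 75.4 CPM in the cells with exactly 3 genes, just inside the limit, and at 27.9 CPM in those with exactly 2, just outside it. *Bmp5* was at 109 and 51.1 CPM, *Cdh4* at 196 and 113 CPM, and *Gria1* at 22.7 and 5.95 CPM. *Calb2* alone was lower just inside the limit (56.8 CPM) than just outside it (69.6 CPM). A rule on detected genes also selects for depth. The members had a median of 20851 UMIs and none under 9619, against a median of 17152 in the other cells, 475 of which lay under 9619.

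The 8447 cells were clustered without the 5 genes, *Hic1*, the transgenes and the Hox genes, into 20 clusters, to ask where the members lie. Members were found in 13 of them, but 120 were in cluster 10, 64 in cluster 0 and 36 in cluster 12, which together held 86.3% of the members and 1316 cells. Cluster 10 was 32.0% (27.3 to 37.0) members and cluster 0 was 17.0% (13.4 to 21.2) members. By contrast, 3 of the 1037 cells of a dermal fibroblast-like cluster (0.289%) and none of the 336 cells of a chondrocyte-like cluster passed the rule. Cluster 12 was mitotic-like, with all 7 mitotic markers raised. A further mitotic-like cluster, 15, also with all 7 raised, held 0 members among its 375 cells. Clusters 10 and 0 had too few markers of any class considered to be named. Cluster 10 was led, apart from rule genes, by *Slc35f3*, *Aldh1a3*, *Npb*, *Sim2*, *Gfra1*, *Rbm47* and *Lhfpl1*, and cluster 0 by *Cxcl9*, *Prlr*, *Tbx3os1*, *Gpr83*, *Casp4*, *Mab21l2*, *Plxnc1* and *Amot*. Outside clusters 10, 0 and 12, 11 members lay in the unnamed cluster 2, 6 in cluster 17, 4 in a pericyte-like cluster, 3 in the dermal fibroblast-like cluster 8 and 2 in each of the universal fibroblast-like clusters 4 and 7, with the rest in unnamed clusters. Cluster 17 had all 8 tenocyte markers raised but stayed unnamed, because 5 of its 10 leading genes were mast cell genes, such as *Cma1*, *Cpa3* and *Mcpt4*.

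**Figure D1:**
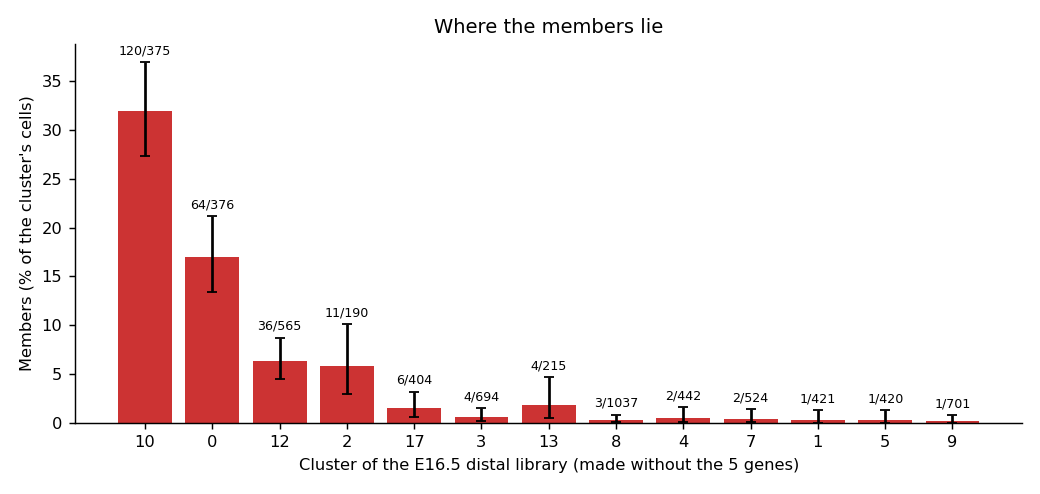
Members as a percentage of each cluster's cells, for the 13 clusters of the E16.5 distal library with a member. Bars carry exact 95% binomial intervals and the numbers above them are members over cells. Cluster 10 (32.0%) and cluster 0 (17.0%) stand above cluster 12 (6.37%) and cluster 2 (5.79%), and the other clusters are under 2%.

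Most members thus lay in 2 clusters with different leading genes at this resolution of the clustering, which is a choice. At a resolution of 0.5, which gave 13 clusters, 194 members (76.1%) were in a single cluster of 942 cells, among them 116 of the members of cluster 10 and all 64 of cluster 0. With clusters 10 and 0 taken apart, the genes of the rule were not shared evenly between them. In members of cluster 10, *Bmp5* was at 174 CPM (157 to 192) and *Gria1* at 47.0 CPM (38.5 to 56.8), against 69.2 CPM (56.4 to 84.0) and 14.9 CPM (9.35 to 22.6) in members of cluster 0. *Calb2* and *Crym* had the opposite order. *Calb2* was at 37.2 CPM (29.7 to 46.1) in members of cluster 10 and at 94.3 CPM (79.2 to 111) in those of cluster 0, and *Crym* at 73.6 CPM (62.8 to 85.6) and 125 CPM (108 to 145). *Cdh4* was at 318 CPM (295 to 342) in the members of cluster 10 and at 165 CPM (145 to 187) in those of cluster 0. The same 5 genes chose the members and UMIs of 1 cell are not independent, so this order is a description and the intervals do not test it. The non-members of cluster 0 had *Calb2* at 101 CPM, no less than its members, so the rule captured only a part of the *Calb2* cells of that cluster. At 3000 UMIs per cell, all cells of cluster 10 had a *Calb2* UMI in 2.40% and a *Cdh4* UMI in 41.9% of cells, and all cells of cluster 0 in 11.4% and 26.3%. In the dermal fibroblast-like cluster 8 these shares were 0.289% and 1.64%.

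**Figure D2:**
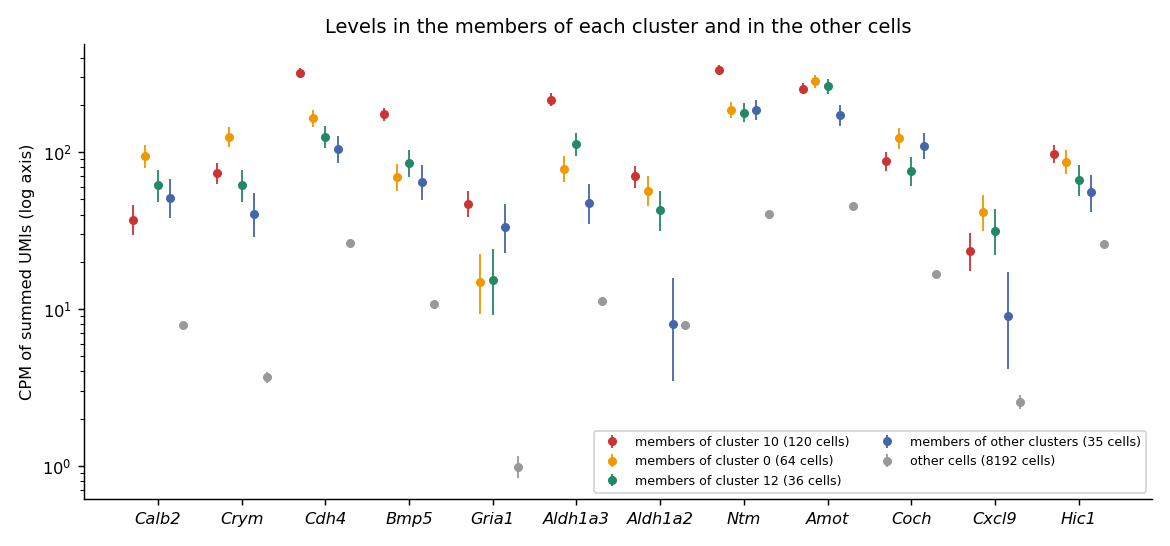
CPM on a log axis for the 5 genes of the rule, 6 of the genes most raised in members, and *Hic1*, in the members of clusters 10, 0 and 12, in members of other clusters, and in the 8192 other cells. Points are sums over cells and bars are exact 95% Poisson intervals for counting error. *Bmp5*, *Gria1* and *Aldh1a3* are highest in the members of cluster 10, *Calb2*, *Crym* and *Cxcl9* in those of cluster 0, and *Aldh1a2* in the members outside the 3 leading clusters (8.05 CPM) is at the level of the other cells (7.95 CPM).

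Beyond the 5 genes, 10254 genes reached 5 CPM in the members or the other cells. Of these, 200 (1.95%) were higher in the members by a log2 ratio of CPM + 1 of at least 1, and 609 (5.94%) were lower by the same amount. The median log2 ratio of all 10254 genes was 0.04. The members were chosen from these same cells, so these ratios describe the members and were not tested. With the other cells of clusters 10, 0 and 12 as reference in place of the whole library, 81 of 10151 genes (0.798%) were higher and 442 (4.35%) lower, and 72 of the 200 higher and 254 of the 609 lower genes passed in both comparisons. This closer reference held 1096 cells, of which 529 were from the mitotic-like cluster 12, 312 from cluster 0 and 255 from cluster 10, so a ratio against it still mixes differences between clusters with differences inside them. Members were therefore also compared with the other cells of their own cluster, which was done after the data were seen. In cluster 10, 168 of 9798 genes (1.71%) were higher and 142 (1.45%) lower in the members, in cluster 0 106 (1.08%) and 222 (2.25%) of 9857, and in cluster 12 265 (2.55%) and 537 (5.16%) of 10405.

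The 15 genes most raised in the members, among genes at 20 CPM or more, were led by *Aldh1a3*, a retinaldehyde dehydrogenase that makes retinoic acid. *Aldh1a3* was at 133 CPM (124 to 143) in the members and at 11.3 CPM (10.7 to 11.8) in the other cells, a log2 ratio of 3.45, and 166 of the 255 members had at least 1 UMI of it. *Aldh1a2*, the main retinoic acid-producing enzyme of the early embryo, was also in this group (50.9 against 7.95 CPM, log2 ratio 2.53). Others were *Ntm*, a GPI-anchored neural adhesion molecule (242 against 40.5 CPM, log2 ratio 2.55), *Coch*, the extracellular protein cochlin (97.7 against 16.8 CPM, log2 ratio 2.47), *Cxcl9*, a chemokine (27.1 against 2.55 CPM, log2 ratio 2.99), and *Npb*, a neuropeptide (25.3 against 3.90 CPM, log2 ratio 2.42). *Amot*, an angiomotin that acts in the Hippo pathway, was at 249 against 45.3 CPM and was found in 243 of the 255 members. The group also held the transcription regulators *Lmo2* (20.3 against 3.34 CPM) and *Tcf15* (29.2 against 5.84 CPM), the actin-oxidising enzyme *Mical2* (27.1 against 3.94 CPM), *Gstt2*, a glutathione transferase (47.3 against 6.86 CPM), the solute carrier *Slc35f3* (26.8 against 3.76 CPM) and *Lhfpl1* (27.1 against 3.52 CPM).

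Also among the 15, both with larger ratios than most of them, were 2 muscle genes, *Actc1*, cardiac actin (27.1 against 1.92 CPM, log2 ratio 3.27), and *Mylpf*, fast myosin light chain (36.5 against 4.19 CPM, log2 ratio 2.85). UMIs of *Actc1* were in 68 and of *Mylpf* in 99 members, with at most 19 UMIs of either in a cell. The 7 myogenic markers summed to 15.3 CPM in the members and 15.6 CPM in the other cells, with *Myf5* at 0 UMIs in the members. *Myog*, a factor of muscle differentiation, was at 4.41 against 0.398 CPM and *Myod1* at 9 member UMIs, while *Des*, desmin, was at 6.78 against 13.3 CPM. With all UMIs, at least 2 of the 7 markers were found in 3.14% (1.36 to 6.09) of the members and 0.659% (0.496 to 0.859) of the other cells, and at 3000 UMIs in 0 of the 255 members and 3 of the other cells. The part of these markers in the *Actc1* and *Mylpf* ratios was not tested.

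**Figure D3:**
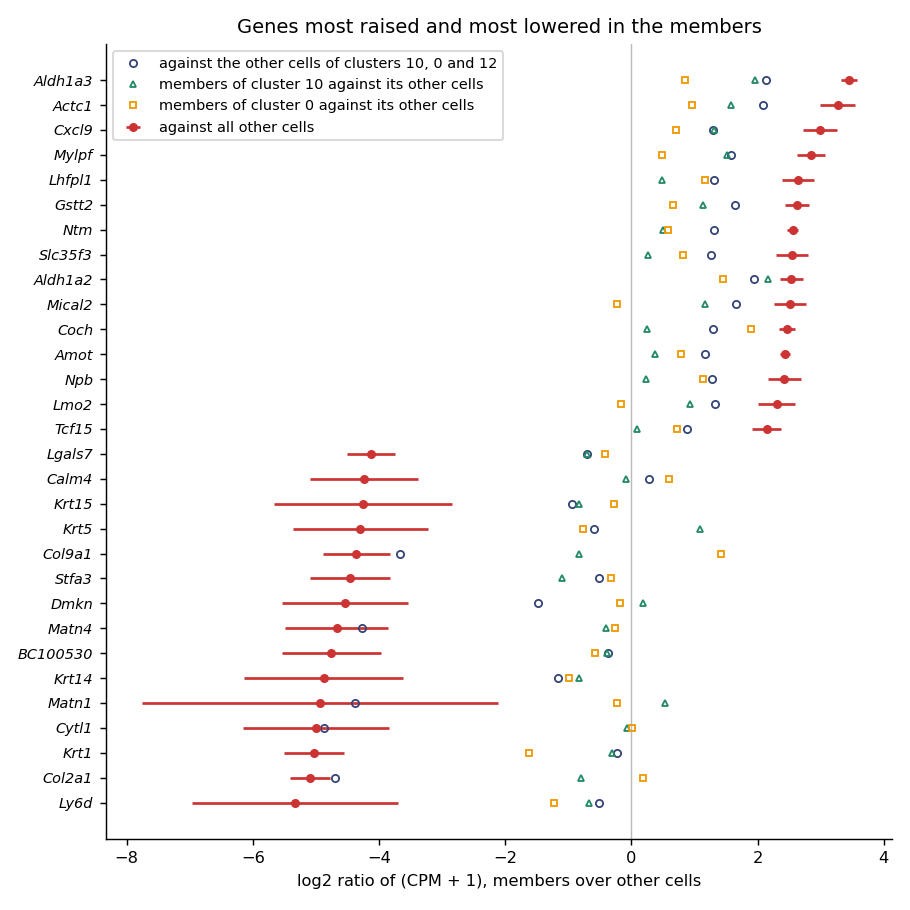
Log2 ratios of CPM + 1 for the 15 genes most raised and the 15 most lowered in the 255 members. Filled points compare with all 8192 other cells and carry 95% counting intervals, and open circles compare with the other cells of clusters 10, 0 and 12. Triangles and squares compare the members of clusters 10 and 0 with the other cells of the same cluster. For *Ntm*, the ratio falls from 2.55 (all other cells) to 1.31 (3 clusters), 0.50 (inside cluster 10) and 0.58 (inside cluster 0), and *Lmo2* and *Mical2* are below 0 inside cluster 0, while the 10 epithelial genes lie between -1.47 (*Dmkn*) and 0.28 (*Calm4*) with the 3 clusters as reference.

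With the closer reference, each of the 15 raised genes still had a ratio above 0, and 14 had a log2 ratio of at least 1, the exception being *Tcf15* (0.88). Inside clusters 10 and 0 fewer did. In cluster 10, 7 of the 15 passed a log2 ratio of 1 between members and the other cells of that cluster, with *Aldh1a2* (2.16), *Aldh1a3* (1.97), *Actc1* (1.58) and *Mylpf* (1.52) highest. The other 8 were closer to even there, among them *Tcf15* (35.9 against 33.9 CPM), *Npb* (41.2 against 34.9), *Coch* (87.3 against 73.5), *Slc35f3* (47.0 against 39.1), *Amot* (254 against 197) and *Ntm* (337 against 237). In cluster 0, 4 of the 15 passed, *Coch* (1.89), *Aldh1a2* (1.44), *Lhfpl1* (1.17) and *Npb* (1.13), while *Lmo2* (10.8 against 12.2 CPM) and *Mical2* (5.42 against 6.54) had a log2 ratio below 0. In cluster 12, 14 passed, all but *Mical2* (0.68). That mitotic-like cluster had 36 members, and its other cells carried cartilage genes (*Col2a1* at 622 CPM, against 20.5 CPM in its members). Ratios inside cluster 12 thus still mix differences between kinds of cells. *Aldh1a2* alone of the 15 passed in all 3 clusters.

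Levels in the members of each cluster are given next. *Aldh1a3* and *Sim2* are leading genes of cluster 10 and *Cxcl9*, *Prlr* and *Amot* of cluster 0, so differences in them between these members follow from the clustering and are a description. *Aldh1a3* was at 217 CPM (198 to 237) in members of cluster 10, 113 CPM (94.2 to 134) in those of cluster 12 and 78.7 CPM (65.0 to 94.3) in those of cluster 0. *Mical2* was at 49.2 CPM in the members of cluster 10 and at 5.42 CPM in those of cluster 0. *Cxcl9* had the reverse order, with 23.5 and 41.4 CPM, and came from 40 members, 1 of which held 27 of its 160 UMIs. *Prlr*, the prolactin receptor, was at 29.8 CPM in the members of that cluster and had 0 UMIs in the members of cluster 10. *Sim2*, a transcription factor, was at 27.5 and 0.678 CPM in the members of clusters 10 and 0. *Aldh1a2* (70.0 and 57.0 CPM) and *Amot* (254 and 283 CPM) were closer to even.

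The same genes were counted in cells drawn down to 3000 UMIs each, so that depth could not differ. *Ntm* had a UMI in 48.6% of the members and 8.50% of the other cells, *Amot* in 46.3% and 10.3%, and *Aldh1a3* in 29.8% and 2.67%. In the 336 chondrocyte-like cells, taken as a background, the share was 0.298% for *Aldh1a3*, 2.08% for *Amot* and 12.2% for *Ntm*, the last above the share in all other cells, and none of the 68 epithelial-like cells had an *Aldh1a3* UMI. Without the draw, *Aldh1a3* was found in 65.1% of the members and 9.03% of the other cells.

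The counts of gene lists that follow are read against the 1.95% of all 10254 genes that were higher and the 5.94% that were lower, and where 1 or 2 genes of a list passed, they are given for the genes and not as a result about the list. Of the 12 measured genes of the retinoic acid list, 3 were higher by at least 1 on the log2 scale and 2 lower (1.95% and 5.94% of all genes), with a median of 0.42. The third higher gene was *Rdh10*, the retinol dehydrogenase that supplies retinaldehyde (69.7 against 28.8 CPM, log2 ratio 1.25). The 2 lower genes were *Cyp26b1*, which breaks retinoic acid down (15.6 against 54.3 CPM, log2 ratio -1.74), and *Crabp1*, a cellular retinoic acid-binding protein (228 against 641 CPM, log2 ratio -1.48). *Crabp2*, its relative, was at 274 against 148 CPM, and the receptor gene *Rarb* at 19.3 against 10.0 CPM, both under the limit. *Cyp26a1* and *Cyp26c1* had too few UMIs in the library (22 and 0 in the other cells, 0 in the members) to be compared. With the closer reference, *Cyp26b1* (-0.95), *Crabp1* (-0.75) and *Rdh10* (0.88) no longer passed a log2 ratio of 1.

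Promoter windows are shown for *Bmp5*, a gene of the rule, for *Aldh1a2*, the raised retinaldehyde dehydrogenase with a window, and for *Amot*, the raised gene found in the most members with all UMIs (243), each running from 250 bases before to 50 bases after a RefSeq transcript start in GRCm38. A window was matched for 11 of 21 genes (the 5 genes of the rule, the 15 raised genes and *Hic1*). Capitals mark AGGTCA on either strand, the half-site bound by nuclear receptors, including those for retinoic acid and thyroid hormone.
*Bmp5*, chr9:75775115-75775414, plus strand: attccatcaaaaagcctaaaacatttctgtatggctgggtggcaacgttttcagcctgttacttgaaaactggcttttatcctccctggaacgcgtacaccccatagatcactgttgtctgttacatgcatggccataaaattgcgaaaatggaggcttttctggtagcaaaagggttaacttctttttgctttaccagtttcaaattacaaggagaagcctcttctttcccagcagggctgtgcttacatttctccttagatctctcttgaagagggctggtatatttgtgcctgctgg
*Aldh1a2*, chr9:71215539-71215838, plus strand: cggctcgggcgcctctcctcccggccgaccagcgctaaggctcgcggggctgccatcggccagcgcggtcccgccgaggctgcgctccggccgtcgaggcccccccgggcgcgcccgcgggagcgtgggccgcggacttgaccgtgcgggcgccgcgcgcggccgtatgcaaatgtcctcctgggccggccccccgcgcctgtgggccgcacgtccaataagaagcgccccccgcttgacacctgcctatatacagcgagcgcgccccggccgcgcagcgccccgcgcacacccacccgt
*Amot*, chrX:145487590-145487889, minus strand: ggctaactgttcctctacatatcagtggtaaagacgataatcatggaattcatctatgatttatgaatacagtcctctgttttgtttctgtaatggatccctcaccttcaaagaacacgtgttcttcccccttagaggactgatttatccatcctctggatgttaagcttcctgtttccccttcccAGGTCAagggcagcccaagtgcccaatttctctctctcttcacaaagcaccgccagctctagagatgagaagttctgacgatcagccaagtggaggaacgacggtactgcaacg
The letters AGGTCA were in 2 of the 14 windows of the matched genes, those of *Amot* and *Cxcl9*, and in 16.3% of all 32851 windows of the same length. The letters CAATAAA, a core bound by posterior HOX proteins, were in none of the 14 windows and in 4.60% of all windows. These counts describe the letters only, and binding was not measured. The *Aldh1a2* window was rich in G and C (78% of its bases) and the *Bmp5* window was not (43.3%).

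Among FGF genes, 3 of 16 measured genes were higher and 4 lower (1.95% and 5.94% of all genes), with a median of -0.20. The higher ones were *Etv4* (36.8 against 10.2 CPM, log2 ratio 1.75) and *Etv5* (32.0 against 13.4 CPM, log2 ratio 1.20), ETS factors transcribed in response to FGF, and *Spry4*, a feedback inhibitor of the pathway (35.4 against 13.7 CPM, log2 ratio 1.31). The lower ones were the ligands *Fgf7* (log2 ratio -1.68) and *Fgf10* (2.54 against 11.3 CPM) and the receptors *Fgfr2* (2.71 against 20.6 CPM) and *Fgfr3* (1.87 against 9.08 CPM). *Fgfr1*, the main mesenchymal receptor, was at 177 against 247 CPM and *Dusp6*, a further FGF response gene, at 7.29 against 7.70 CPM, both under the limit. *Etv4* was lowest in the members of cluster 10 (21.3 CPM) and at 46.1 CPM in those of cluster 0, while *Etv5* was at 45.2 and 20.3 CPM. None of these 3 genes passed with the closer reference (0.73 to 0.87).

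Posterior Hox genes were examined because the name calls the cells distal. Of 9 measured genes, 1 was higher and 2 were lower (1.95% and 5.94% of all genes), with a median of 0.00. *Hoxd12* was higher (24.6 against 10.2 CPM, log2 ratio 1.20), and *Hoxa11* (13.4 against 45.8 CPM, log2 ratio -1.70), a gene of the forearm, and *Hoxa10* (34.1 against 82.8 CPM, log2 ratio -1.26) were lower. The genes of the hand, *Hoxa13* (49.2 against 30.5 CPM) and *Hoxd13* (124 against 76.0 CPM), were at log2 ratios of 0.67 and 0.69, and *Hoxd11* was near even (76.5 against 80.5 CPM). *Hoxd13* was at 164 CPM in the members of cluster 10 and 99.0 CPM in those of cluster 0. Among 8 measured genes of proximal identity, none was higher and 5 were lower, including *Shox2* (23.9 against 119 CPM, log2 ratio -2.27) and the TALE factor *Meis2* (2.71 against 9.10 CPM, log2 ratio -1.44). With the closer reference no posterior Hox gene passed a ratio of 1 in either direction. Of 20 patterning factors, *Pax9* was higher (14.9 against 4.98 CPM, log2 ratio 1.41) and 5 were lower, among them the dorsal gene *Lmx1b* (2.54 against 8.87 CPM) and *En1* (3.05 against 22.6 CPM). *En1* also stands in the dermal fibroblast list, and the study names it as a marker of dermal fibroblast progenitors. *Tbx3*, one of the genes of posterior limb mesenchyme, was at 56.3 CPM in the members of cluster 0 and 7.98 CPM in those of cluster 10.

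*Bmp5* was part of the rule. Of the 7 other BMP ligand genes measured, none was higher and *Bmp3* was lower (7.80 against 21.0 CPM, log2 ratio -1.32), while *Bmp4* was at 55.8 against 49.0 CPM and *Bmp7* at 20.7 against 15.7 CPM. Of 12 BMP antagonist genes 6 were lower and 1 was higher (5.94% and 1.95% of all genes), with a median of -0.93. The lower ones included noggin, *Nog* (1.02 against 14.8 CPM, log2 ratio -2.97), gremlin, *Grem1* (4.07 against 25.8 CPM), and follistatin, *Fst* (20.3 against 76.0 CPM, log2 ratio -1.85). *Bmper*, which can both block and assist BMPs, was higher (30.9 against 10.6 CPM, log2 ratio 1.46). *Id1* (219 against 224 CPM) and *Id3* (613 against 478 CPM), transcribed in response to BMP, differed by less than 1, as did *Bmpr1a* (99.4 against 94.3 CPM) and *Bmpr2* (101 against 112 CPM). Of 13 receptor and target genes, 2 were lower and none was higher. With the closer reference, *Nog* (-1.76) and *Fst* (-1.01) stayed below -1 and *Grem1* (-0.73) did not. Inside clusters 10 and 0, *Fst* was at log2 ratios of -1.43 and -0.93, and *Nog* had 1 UMI and 0 UMIs in the members.

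**Figure D4:**
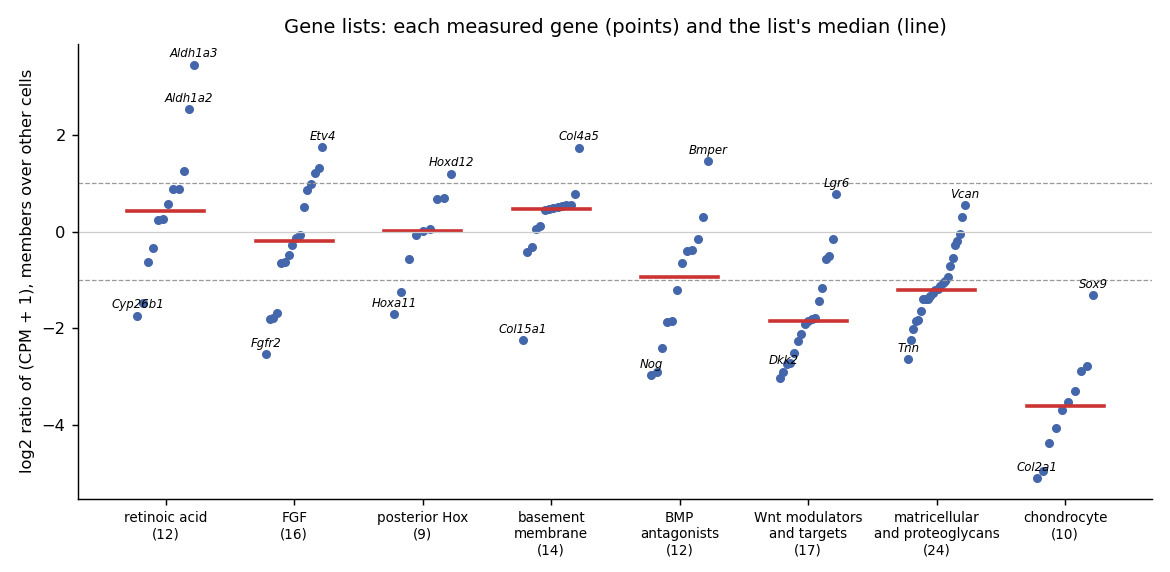
Log2 ratios of CPM + 1 of members over other cells for every measured gene of 8 lists, with the number of genes under each name. Points are genes, red lines are list medians and dashed lines mark ratios of 1 and -1. The retinoic acid list has *Aldh1a3* and *Aldh1a2* at the top, the BMP antagonists have a median of -0.93, the Wnt modulators and targets one of -1.84, and all 10 chondrocyte genes are below -1.

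Wnt genes were largely on the lower side. Of 17 measured Wnt modulators and targets 13 were lower and none was higher (5.94% and 1.95% of all genes), with a median of -1.84. They included the secreted inhibitors *Dkk2* (13.7 against 109 CPM, log2 ratio -2.89), *Sfrp2* (17.1 against 118 CPM, log2 ratio -2.72) and *Wif1* (11.9 against 72.6 CPM), the agonist *Rspo3* (18.1 against 81.5 CPM) and the response genes *Axin2* (11.2 against 32.1 CPM) and *Lef1* (2.54 against 16.1 CPM). *Axin2* and *Lef1* also stand in the dermal fibroblast list and *Sfrp2* in the joint list. With the closer reference *Dkk2* (-2.16) and *Sfrp2* (-1.93) stayed below -1, while *Axin2* (-0.38) and *Lef1* (-0.86) did not. Inside cluster 10 *Dkk2* was at -1.49 and *Sfrp2* at 0.42, and inside cluster 0 they were at -0.89 and -0.22. Among 8 ligands, *Wnt5b* was higher (34.1 against 8.58 CPM, log2 ratio 1.87, 1.08 with the closer reference, 0.45 inside cluster 10 and 1.17 inside cluster 0) and 5 were lower, among them *Wnt4* (6.95 against 39.5 CPM) and *Wnt2* (1.70 against 13.9 CPM). *Wnt5a*, the non-canonical ligand of distal limb mesenchyme, was at 78.0 against 98.4 CPM.

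The families of the other genes of the rule are given as a description, because the rule itself selects for its genes. Over all genes 1.95% were higher and 5.94% lower, so a list of this size with none higher is no result about a family. Among 17 measured EF-hand calcium-binding genes besides *Calb2*, none was higher and 4 were lower, among them *S100a4* (3.73 against 28.4 CPM, log2 ratio -2.64). Of 6 other ionotropic glutamate receptor genes, none was higher and *Gria2* (0.848 against 5.78 CPM), *Grin2a* (1.19 against 6.46 CPM) and *Grin3a* (4.07 against 9.21 CPM) were lower, while *Gria3* was at 39.8 against 26.2 CPM. Of 15 auxiliary genes of these receptors, *Shisa6*, which binds AMPA receptors, was higher (8.48 against 2.16 CPM, log2 ratio 1.59). Of 4 other classical cadherins and 5 catenins none passed in either direction. *Cdh2*, N-cadherin, was at 52.1 against 39.6 CPM and *Cdh11*, the cadherin of mesenchyme, at 226 against 341 CPM. Of 9 other thyroid hormone genes none was higher and 2 were lower, *Klf9* (40.9 against 100.3 CPM, log2 ratio -1.28), which is transcribed in response to thyroid hormone, and the transporter *Slc16a10* (1.36 against 5.35 CPM). The receptor gene *Thra* was at 207 against 224 CPM.

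Of 35 measured guidance genes, 2 were higher, where 1.95% of all genes were, the ephrin receptor *Ephb1* (30.4 against 6.77 CPM, log2 ratio 2.01) and the semaphorin receptor *Plxna2* (18.1 against 6.02 CPM, log2 ratio 1.45), and 9 were lower, where 5.94% of all genes were, among them the semaphorins *Sema3d* (3.39 against 43.6 CPM, log2 ratio -3.35) and *Sema3c* (32.7 against 139 CPM) and netrin, *Ntn1* (3.22 against 30.5 CPM). Of 25 neuronal-type genes, none was higher and 10 were lower, with *Gap43* at 24.6 against 110.4 CPM and *Nefm* at 28.3 against 68.8 CPM. The raised genes *Ntm*, a neural adhesion molecule, and *Npb*, a neuropeptide, were not in that list. In the Notch list, *Hey1*, a Notch target, was the 1 higher gene of 6 (24.2 against 10.5 CPM, log2 ratio 1.13). Among 10 hedgehog genes *Ptch1* (22.7 against 51.5 CPM) and *Hhip* (2.03 against 9.72 CPM), both induced by hedgehog signalling, were lower and none was higher. Of 12 TGF-beta genes 5 were lower, among them *Ltbp2* (3.05 against 25.6 CPM) and *Inhba* (5.26 against 33.1 CPM). Of 11 chemokine genes 7 were lower, among them *Ccl2* (11.4 against 69.3 CPM) and *Cxcl14* (46.6 against 165 CPM). *Cxcl9*, the raised chemokine, was not in that list.

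Matrix genes differed by list. Of 24 matricellular and proteoglycan genes, 16 were lower and none was higher, with a median of -1.20. Decorin, *Dcn*, was at 703 against 2506 CPM, lumican, *Lum*, at 221 against 1042 CPM, and osteonectin, *Sparc*, at 1185 against 3096 CPM, while versican, *Vcan*, was at 779 against 534 CPM. Of 15 fibrillar and interstitial collagen genes 4 were lower, among them *Col1a1* (3417 against 7989.5 CPM, log2 ratio -1.23) and *Col14a1* (155 against 477 CPM, log2 ratio -1.62). Of the listed chains of collagen VI, 3, such as *Col6a1* (1379.6 against 1008 CPM), were between 0.22 and 0.45 on the log2 scale. Basement membrane genes had a positive median (0.48, 14 genes), of which *Col4a5* was higher (51.5 against 14.8 CPM, log2 ratio 1.73) and *Col15a1* lower (3.39 against 19.7 CPM). With the closer reference, *Dcn* (-0.98), *Lum* (-0.73) and *Col1a1* (-0.72) were within 1.

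The genes most lowered in the members were cartilage and epithelial genes that other cells of the library carry. *Col2a1*, the collagen of cartilage, was at 13.6 CPM (10.8 to 16.9) in the members and at 495 CPM (491 to 498) in the other cells, and all 10 measured chondrocyte markers were lower, *Sox9* least (32.4 against 81.7 CPM, log2 ratio -1.31). The cartilage genes *Col9a1*, *Matn4*, *Cytl1* and *Matn1* and 10 genes of the epithelial-like cells, *Krt1*, *Krt5*, *Krt14*, *Krt15*, *Ly6d*, *Lgals7*, *Calm4*, *Dmkn*, *Stfa3* and *BC100530*, made up the rest of the 15. Each of these 10 had a UMI in at least 48.5% of the 68 epithelial-like cells at 3000 UMIs. The members held 1 *Matn1* UMI and 3 *Ly6d* UMIs. With the 68 cells of the epithelial-like cluster left out, 9 of the 15 were still below -1, and *Calm4* was at 0.16. All 5 cartilage genes remained below a log2 ratio of -3 with the closer reference, where cluster 12 supplies cartilage genes (*Col2a1* was at 622 CPM in the other cells of cluster 12 and at 15.4 CPM in those of cluster 10). Inside cluster 10 *Col2a1* was at -0.80 and inside cluster 0 at 0.19, so its low level was shared with the other cells of these clusters.

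Markers of other limb lineages were lower to a degree that differed by list. Of 9 dermal fibroblast genes 7 were lower (median -2.54), of 8 tenocyte genes 6 (-1.44), of 10 universal fibroblast genes 9 (-1.60) and of 7 perichondrial genes 5 (-1.51), and none of these genes was higher. Fewer passed among the joint markers (3 of 6, -0.84), the pericyte markers (3 of 6) and the perineurial markers (2 of 4, -0.78). *Pi16*, a marker of universal fibroblasts, was at 1.53 against 37.5 CPM, *Scx*, a tendon transcription factor, at 37.3 against 65.0 CPM and *Fap*, a fibroblast protease, at 116 against 73.4 CPM. At 3000 UMIs, at least 3 universal fibroblast markers were found in 13.3% (9.41 to 18.1) of the members and 38.1% (37.1 to 39.2) of the other cells, and at least 3 dermal fibroblast markers in 0.392% (0.00993 to 2.17) and 11.8% (11.1 to 12.5). At this depth no member had 3 chondrocyte markers, against 9.79% (9.15 to 10.5) of the other cells. With all UMIs, at least 3 markers were found in 68.2% (62.1 to 73.9) of the members and 71.7% (70.7 to 72.6) of the other cells for universal fibroblasts, in 9.41% (6.12 to 13.7) and 30.4% (29.4 to 31.4) for dermal fibroblasts, and in 18.0% (13.5 to 23.3) and 26.3% (25.3 to 27.2) for chondrocytes. At least 2 universal fibroblast markers were found in 90.2% (85.9 to 93.6) and 86.8% (86.0 to 87.5), the opposite order, and the members are deeper cells. Of the general mesenchymal genes, *Pdgfra* was at 308 against 224 CPM, *Prrx1* at 156 against 311 CPM and *Twist2* at 29.5 against 184 CPM. Of cell types outside mesenchyme, endothelial markers summed to 14.4 CPM in the members and 11.1 CPM in the other cells. Immune markers summed to 3.56 and 3.61 CPM (*Ptprc* and *Csf1r* were at 0 in the members), glial markers to 3.22 and 5.68 CPM (*Sox10* and *Mbp* at 0), and erythroid markers to 2.71 and 0.965 CPM.

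*Hic1*, the gene that drives the label, was at 81.7 against 25.8 CPM, and its log2 ratio was 1.63 (0.83 with the closer reference). At 3000 UMIs it was found in 20.8% of the members and 7.02% of the other cells. It was at 97.9 CPM in members of cluster 10, 86.8 in those of cluster 0 and 66.5 in those of cluster 12. The cells of these clusters that did not pass the rule were at 86.5, 70.5 and 24.5 CPM, which gives log2 ratios of 0.18, 0.30 and 1.41, so in clusters 10 and 0 the high *Hic1* was shared by members and non-members. The reporter was not raised with it, at 686 against 859.5 CPM, a log2 ratio of -0.32. It was found in all 255 members and in 99.1% of the other cells, all of which came from a sort for it. At 3000 UMIs these shares were 83.9% and 86.9%.

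Cell division was compared by 7 mitotic markers. At 3000 UMIs, at least 3 were found in 11.4% (7.75 to 15.9) of the members and 9.74% (9.11 to 10.4) of the other cells, and at least 2 in 18.0% (13.5 to 23.3) and 12.8% (12.1 to 13.5). The intervals cover the counting of cells in 1 library and are not a test. Without drawing cells down the shares were 26.3% (21.0 to 32.1) and 18.2% (17.3 to 19.0), and the members are deeper cells. None of the 7 genes passed a log2 ratio of 1, with *Mki67* at 119.9 against 116 CPM and *Top2a* at 228 against 201 CPM. Of 21 hypoxia and glycolysis genes, *Egln3* was the 1 higher gene (log2 ratio 1.28, where 1.95% of all genes were higher), and of 14 immediate early genes 3 were lower, *Fos* (148 against 408 CPM), *Jun* (319 against 678 CPM) and *Nr4a1* (81.7 against 179.8 CPM).

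The rule was then applied to the other libraries, which did not choose the members. It was passed by 55 of 11109 cells of the E16.5 proximal library, 0.495% (0.373 to 0.644), and 51 of 8381 cells at E14.5, 0.609% (0.453 to 0.799). It was passed by 20 cells at E12.5, 12 at E13.5 and 2 at E11.5, and by 0 of 5464 and 0 of 5682 cells of whole 1 and whole 2, which allows shares of up to 0.0549% and 0.0528% if 3 counts are taken as the limit (the upper ends of the exact intervals are 0.0675% and 0.0649%). These libraries differ in depth, with median UMIs per cell from 6788 at E13.5 to 18473 in the E16.5 proximal library. With every cell drawn down to 3000 UMIs before the rule, 17 distal cells passed, 0.201% (0.117 to 0.322), against at most 1 in each other library. For that 1 cell of the E16.5 proximal library the share was 0.00900% (0.000228 to 0.0501). The rule was set on the distal library, so its share there is no finding, and the intervals cover the counting of cells and not the difference between samples. Each is 1 library, and the distal counts were made with another Cell Ranger version than those of the other sorted libraries. According to the study's methods, libraries of E11.5, E12.5 and E13.5 were also made with an earlier version of the library kit than those of E14.5 and E16.5, and limbs of E11.5 and E12.5 were dissociated with other enzymes. The E14.5 and both E16.5 libraries share the kit and the enzymes by those methods, so between them the segment or stage, the library and the Cell Ranger version cannot be told apart. For the earlier stages the kit or the enzymes come in addition, here and in the levels by stage that follow.

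**Figure D5:**
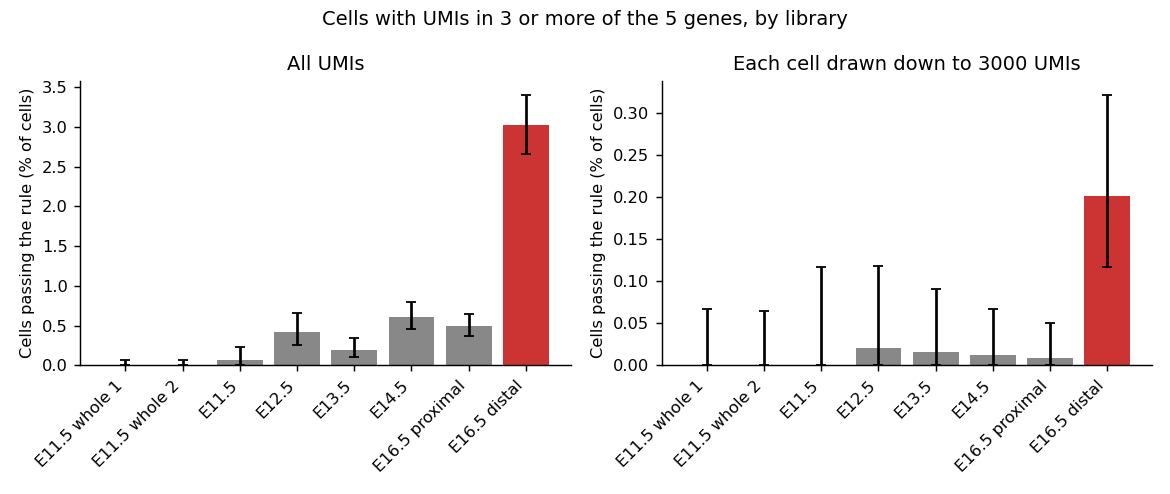
Share of filtered cells with a UMI in 3 or more of the 5 genes in the 8 libraries, with all UMIs (left) and with each cell drawn down to 3000 UMIs (right, another scale). Bars carry exact 95% binomial intervals, and the red bar is the library the members come from. The distal library has 3.02% and 0.201%, and no other library exceeds 0.609% and 0.0212%.

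The 5 genes were not all highest in the distal library over all of its filtered cells. *Cdh4* was, with 33.1 CPM there, 7.98 CPM in the proximal library, and 6.86, 28.1, 22.4 and 21.5 CPM in the 4 sorted libraries from E11.5 up to E14.5. *Bmp5* and *Gria1* were highest at E13.5 (34.4 and 3.70 CPM, against 14.4 and 2.07 CPM at E16.5 distal). *Calb2* (10.8 CPM) and *Crym* (9.45 CPM) were highest at E12.5. At E16.5 each of the 5 genes was higher in the distal than in the proximal library, with *Calb2* at 9.84 and 1.22 CPM. The rule was set on the distal library, so high levels of its genes there are a description and no finding. *Aldh1a3* had the other order, with 15.8 CPM distally and 23.6 proximally. *Aldh1a2* was at 49.3 CPM at E11.5 and 55.1 at E12.5, and at 9.54 CPM at E16.5 distal.

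The 55 cells of the E16.5 proximal library that passed the rule also had most of the genes raised in the members. All 15 genes had a ratio above 0 there and 10 passed a log2 ratio of 1, in a comparison in which 2.69% of all genes did. *Aldh1a3* was at 146 against 22.9 CPM in the other proximal cells (2.62), *Coch* at 64.5 against 14.1 (2.12), and *Amot* at 111 against 28.0 (1.95). *Cxcl9* (0.47, 9 UMIs), *Actc1* (0.85) and *Mylpf* (0.89) were among the 5 that did not pass. All 15 lowered genes passed there (7.1% of all genes). These are cartilage and epithelial genes at high levels in the other proximal cells, such as *Col2a1* (15.4 against 1775 CPM) and *Krt1* (15.4 against 1244 CPM). Any set of cells without cartilage or epithelial cells would pass likewise, so this is a description.

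At E14.5, 7 of the 15 raised genes passed in the 51 cells, in a comparison in which 1.35% of all genes did, and 4 had a ratio below 0. The passing genes were *Aldh1a3* (3.12, 119 against 12.7 CPM), *Tcf15* (2.32), *Aldh1a2* (1.59), *Lhfpl1* (1.46), *Amot* (1.30), *Lmo2* (1.26) and *Gstt2* (1.07). The 4 with a ratio below 0 were *Cxcl9*, *Mical2*, *Actc1* and *Coch*, which had between 0 and 2 UMIs in the 51 cells. Of the 15 lowered genes, 11 passed (4.51% of all genes did). The other 4, *Ly6d*, *BC100530*, *Stfa3* and *Calm4*, could not be compared. They had 0 UMIs in the 51 cells and between 0.0753 and 0.406 CPM in the other cells. *Hic1* was also higher in the cells that passed the rule in both libraries, with log2 ratios of 1.05 (E14.5) and 1.23 (proximal), where the reporter was even (0.03 and -0.02). *Aldh1a3*, *Aldh1a2*, *Amot*, *Lmo2*, *Lhfpl1* and *Gstt2* passed in both the E14.5 and the proximal library. In the distal library they passed by choice, since the 15 genes were picked by their ratio there. Some of these ratios rest on few UMIs in the passing cells. At E14.5 and in the proximal library there were 15 and 31 for *Lmo2*, 16 and 13 for *Lhfpl1*, and 22 and 44 for *Gstt2*. The barcodes of 3 members also occurred in another library, 2 in the E14.5 and 1 in the proximal one, in no case as a cell that passed the rule there.

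The overlap of the members with 2 other small groups of the distal library that carry neuronal-type genes was counted. Of 249 cells with UMIs in at least 2 of *Foxq1*, *Grin2a* and *Nefm*, 3 were members (1.18% of the members and 1.20% of those cells, where members were 3.02% of all cells). Of 112 cells with both *Nkain3* and *Pcdh15*, 5 were members (1.96% of the members, where such cells were 1.33% of all cells, and 4.46% of those cells, where members were 3.02% of all cells). These groups were set after values had been seen and are given as a description.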

How the data were processed

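Cells were sorted and profiled with 10x Chromium 3′ libraries. The authors deposited raw UMI counts per gene and barcode, made with Cell Ranger on a modified mm10 reference (per the file headers, version 6.0.1 for the E16.5 distal and 3.0.2 for the other sorted libraries). Cells with at least 3000 UMIs and at most 10% mitochondrial UMIs were kept. In the distal library 534 of 9061 barcodes were under 3000 UMIs. The filtered cells had a median of 17275 UMIs.

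UMIs were summed over members and over other cells and scaled to CPM, and log2 ratios of CPM + 1 were computed for genes at 5 CPM or more in either set. Genes past a ratio of 1 or -1 were counted. Since each sorted group was a single library, no test was run. Clusters came from 2000 variable genes, 50 principal components, 25 neighbours and the Leiden algorithm at resolution 1 (scanpy 1.11.5, igraph 0.11.9). A cluster was named after the marker class with the largest share of raised markers, given at least 3 and no more leading genes of another class, with basal and suprabasal epithelium counted as 1 class. Scrublet called 0 of 8447 cells doublets and so had not worked, and no cell was removed as a doublet.

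The text names the 15 genes with the largest and the 15 with the smallest ratio at 20 CPM or more in the higher set (without the rule's genes, haemoglobin and mitochondrial genes, *Xist*, *Tsix* and Y-linked genes), genes of lists by a limit of 6 per list, and *Hic1*, tdTomato, *Pdgfra* and *Prrx1*. Some list genes were named in addition after their values were seen, as were *Sim2*, *Prlr* and the overlapping groups. The members, lists and rules were chosen with earlier results of these data known. The ratio was checked on simulated sums drawn at the gene levels of these data, with known changes put in. The simulation had no selection of cells by a rule and no spread between cells. Shares are exact Clopper-Pearson and sums exact Poisson 95% intervals, and a count of 0 was given a limit of 3 counts. Promoter windows are RefSeq's (GRCm38.p6), gene positions those of a GRCm38 annotation. A few genes of the lists are not reported here.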

Additional observations from a re-analysis of the deposited data

How the results depend on the processing

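With 1 library per sorted group and no replicates of it, values rest on counting error alone, and depth limits the rule: no distal cell under 9619 UMIs passed it. No paired analysis was possible because each sorted group was 1 library and the result came from no test. The 15 raised genes stayed above 0 and the 15 lowered genes below 0 under every alternative run that compared with cells of several clusters, except *Calm4*, which was at 0.16 without the epithelial cluster and at 0.28 with the other cells of the 3 leading clusters as reference. Against the other cells of their own cluster, an alternative added after seeing the data, *Krt5* (1.08), *Dmkn* (0.19) and *Matn1* (0.53) turned positive in cluster 10. The members of cluster 10 held 5, 3 and 1 UMIs of these genes. In cluster 0, *Calm4* (0.60, 3 member UMIs), *Col9a1* (1.41, 13), *Cytl1* (0.0087, 2) and *Col2a1* (0.19, 27) turned positive. *Mical2* (-0.23, 8 member UMIs) and *Lmo2* (-0.16, 16) turned negative there. These signs rest on few UMIs and were not tested. Leaving out cells that Scrublet calls doublets was not run, because it called 0 cells. Leaving out instead the 398 cells with the highest 5% of scores, 19 of them members, was added after seeing the data and left 236 members, 230 higher and 669 lower genes. The 95th percentile of the score was 0.176 in the members and 0.136 in the other cells, while the median was 0.0223 and 0.0369.

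The number of members was 44 with at least 4 of the 5 genes, 823 with at least 2, 79 with at least 2 UMIs in each of 3 genes and 17 with cells drawn down to 3000 UMIs before the rule. The share in the leading cluster was 47.1% in the main setting and 61.4%, 28.8% and 57.0% under the first 3 of these, and 76.1% at resolution 0.5. It was not computed for the lower UMI minimum planned, since cells under 3000 UMIs were not clustered.

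Higher and lower genes, 200 and 609 in the main setting, were 498 and 1000 with at least 4 genes, 120 and 348 with at least 2 genes, 975 and 1572 with cells drawn down before the rule, and 105 and 318 with a filter of 20 CPM. Higher genes were 515 with cells drawn down after the rule, 377 with 2 UMIs per gene, 81 with the other cells of the 3 leading clusters as reference, and 118 with a pseudocount of 5 CPM. Lower genes were 934 without a filter. With the members of cluster 10 only, an alternative added after seeing the data, 393 genes were higher and 1030 lower, and with those of cluster 0 only 1049 were lower. Against the other cells of their own cluster, 168 genes were higher and 142 lower in the members of cluster 10, and 106 and 222 in those of cluster 0. Smaller sets of members hold fewer UMIs per gene, and beyond that the cause was not tested.

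At 3000 UMIs the share of cells passing the rule was 0.201% in the distal and 0.00900% in the proximal E16.5 library, and 0%, 0.0212%, 0.0163% and 0.0119% in the 4 sorted libraries from E11.5 up to E14.5. The share of mitotic members, 11.4% in the main setting, was 26.3% without drawing cells down and 18.0% with at least 2 markers.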
